A study of Mus musculus with 12 samples.

Results

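Granzymes, perforin and the other effector molecules with which CD8 T cells kill were described here as 10 genes, namely Gzma, Gzmb, Gzmc, Gzmk, Gzmm, Prf1, Nkg7, Srgn, Fasl and Ifng. They are 10 of the 21900 protein-coding genes in the annotation used, were taken by name, and all 10 were found. The mark was H3K79me2, dimethylation of lysine 79 of histone H3, measured by chromatin immunoprecipitation and sequencing. The cells were CD8 T cells of male mice. The animals were wild type for CreERT2 and for the floxed Dot1l allele and heterozygous for OT-I, a transgenic T cell receptor, and all groups shared this genotype. Cells were activated on day 0 through CD3 and CD28 and expanded to day 8 with EPZ-5676, with SGC-0946 or with 0.1% DMSO as vehicle, renewed every other day. Both compounds inhibit DOT1L, the enzyme that methylates H3K79, and each is labelled as 10 mM, a doubtful unit because such compounds are given to cells in micromolar amounts. Each treatment had 2 immunoprecipitated and 2 input libraries. The analysed values come from 1 deposited list of broad peaks per treatment, called the EPZ, SGC and DMSO lists below. The spread between replicates is therefore not measured, no p-value is given, and the depth behind the lists is unknown. Wherever a list has no peak, none was called there, which is not a measurement of absence.

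Cytotoxic T cells kill by releasing the contents of lytic granules toward a target cell. Perforin, encoded by Prf1, forms pores, and granzymes are serine proteases that enter through them and cleave proteins in the target, granzyme B at sites that activate caspases. Serglycin, the proteoglycan core protein encoded by Srgn, holds granzymes in the granule, and Nkg7 is a granule membrane protein needed for efficient degranulation. Fas ligand, from Fasl, triggers the death receptor Fas without granules, and interferon gamma, from Ifng, acts on many cells as a cytokine. H3K79me2 typically lies over the first part of transcribed genes, starting at or just after the transcription start.

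The EPZ list held 4443 peaks over 18.1 Mb, the SGC list 55 peaks over 0.138 Mb and the DMSO list 12578 peaks over 68.4 Mb. The labelled cell type was checked against markers. All 7 T cell markers (among them Cd3e and Lck) and both CD8 genes, Cd8a and Cd8b1, had EPZ and DMSO peaks. None of the 3 CD4, 4 B cell, 4 NK cell, 6 myeloid or 4 mast cell markers had a peak in any list.

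At 4 of the effector genes the EPZ peak had its upstream edge within the 300-base window at a start site, and these windows are shown first because the edge can be read in them. They hold 250 bases before and 50 from the start, 5′ to 3′ on the strand of the gene, from RefSeq on GRCm38.p6, which is the same build as mm10. Capitals mark the bases under the EPZ peak and lower case those outside it. The window of Gzmb is chr14:56262285-56262584 on the minus strand, that of Fasl is chr1:161788446-161788745 on the minus strand, that of Nkg7 is chr7:43436888-43437187 on the plus strand, and that of Srgn, at a start inside the gene, is chr10:62507708-62508007 on the minus strand.
Gzmb: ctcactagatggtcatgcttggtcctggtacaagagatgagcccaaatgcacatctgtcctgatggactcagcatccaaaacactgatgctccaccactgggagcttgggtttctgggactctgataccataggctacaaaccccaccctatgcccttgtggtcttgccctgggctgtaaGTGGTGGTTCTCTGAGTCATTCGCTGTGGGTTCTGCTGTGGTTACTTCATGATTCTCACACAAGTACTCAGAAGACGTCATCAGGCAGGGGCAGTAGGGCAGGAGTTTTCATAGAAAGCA
Fasl: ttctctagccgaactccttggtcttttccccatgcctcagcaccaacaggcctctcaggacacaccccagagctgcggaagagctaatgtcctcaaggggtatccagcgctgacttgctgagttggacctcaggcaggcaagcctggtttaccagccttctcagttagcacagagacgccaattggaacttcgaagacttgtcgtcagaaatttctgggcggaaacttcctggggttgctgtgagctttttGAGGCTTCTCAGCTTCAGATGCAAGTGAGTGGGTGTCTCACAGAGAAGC
Nkg7: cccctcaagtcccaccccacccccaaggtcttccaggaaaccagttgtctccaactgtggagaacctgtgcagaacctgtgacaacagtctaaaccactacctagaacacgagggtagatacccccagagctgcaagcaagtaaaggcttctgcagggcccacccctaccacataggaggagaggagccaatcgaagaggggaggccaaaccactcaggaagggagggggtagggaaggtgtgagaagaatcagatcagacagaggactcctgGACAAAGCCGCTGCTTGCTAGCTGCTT
Srgn: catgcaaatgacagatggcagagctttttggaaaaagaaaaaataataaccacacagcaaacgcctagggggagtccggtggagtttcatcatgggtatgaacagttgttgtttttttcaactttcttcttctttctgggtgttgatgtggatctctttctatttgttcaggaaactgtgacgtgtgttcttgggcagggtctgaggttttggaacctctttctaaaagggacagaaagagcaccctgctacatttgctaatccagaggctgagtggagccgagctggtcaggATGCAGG
In Gzmb 120 of the 300 bases lay under the EPZ peak, which began 70 bases before the start. In Fasl 49 bases lay under it, in Nkg7 27 and at the inner Srgn start 7, so that the EPZ peak began 1 base past the start position in Fasl, 23 bases past it in Nkg7 and 43 bases past it at Srgn. The DMSO peaks reached farther upstream, by 661 bases before the start in Gzmb, 618 in Fasl, 151 in Nkg7 and 71 at the inner Srgn start. All 4 EPZ-marked effector genes had a start window partly under an EPZ peak, against 14.3% of the 2831 EPZ-marked protein-coding genes with a listed start. This share counts either edge of any EPZ peak in a window, so it is not the share with an upstream edge there. An EPZ peak reached a start window at all in 26.8% of those genes. All 5 DMSO-marked effector genes had a DMSO peak reaching a start window, against 49.9% of 6149. Gzmm is among the 5 through a peak that enters it from the upstream gene Cdc34, and such a peak necessarily crosses the start. In 2 of the 5 genes, Nkg7 and Srgn, an edge of the DMSO peak itself lay in the window, against 20.1% of the 6149, again counting either edge. Peaks come from sequenced fragments, so an edge is not precise to the base.

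With EPZ-5676, 4 of the 10 genes had a called peak (Gzmb, Nkg7, Srgn and Fasl), against 5 of 10 with DMSO (the same 4 and Gzmm). A gene counted as marked from an overlap of 1 base with a peak. Over all protein-coding genes 15.9% were marked in the EPZ list and 34.5% in the DMSO list, and among genes no longer than Srgn, the longest of the 10, the shares were 14.4% and 31.8%. With only 10 genes, the exact (Clopper-Pearson) 95% intervals of the observed shares run from 12.2 to 73.8% for EPZ-5676 and from 18.7 to 81.3% for DMSO, and each contains both of its backgrounds under this 1-base rule. These intervals cover the counting of genes only. Under stricter peak thresholds the counts were again 4 and 5 and the backgrounds lower. With a −log10 q of at least 5, 7.68% (EPZ) and 17.3% (DMSO) of all protein-coding genes were marked, both below the intervals. With a fold enrichment of at least 4 the shares were 8.29% and 21.2%, of which only the EPZ share lies below its interval. These counts still include peaks shared with neighbours, and these backgrounds were not limited by gene length. When a peak counted only for the gene it overlaps most, 3 of the 10 were marked in the EPZ list and 3 in the DMSO list. The shares over all protein-coding genes were then 14.9% and 31.0%. The 10 genes were chosen with earlier results of these data known, so the intervals are no test of them against all genes. Of the 5 effector genes marked in DMSO 4 had an EPZ peak, against 46.1% of all DMSO-marked genes. The 5 all had high DMSO fold enrichment, and of the 1091 genes with a DMSO value at or above the lowest of them 93.6% had an EPZ peak. Among genes of such DMSO enrichment, 4 of 5 is therefore not a high count. The 10 genes were short, with a median length of 7046 bases against 17146 over all protein-coding genes.

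**Figure D1:**
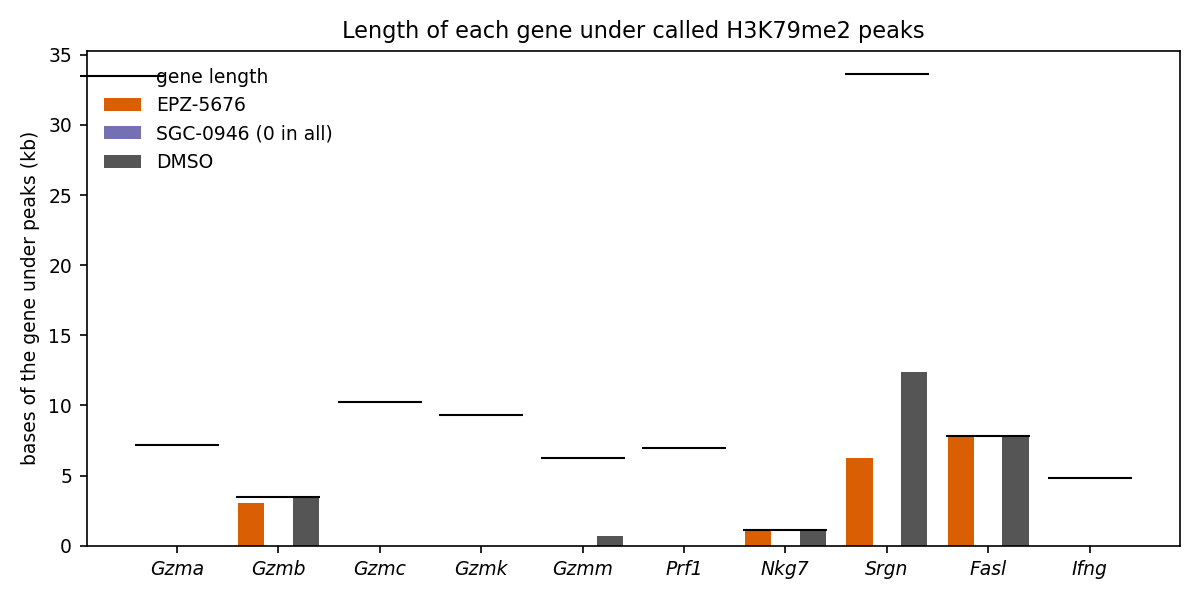
Bars give the kilobases of each gene under called peaks with EPZ-5676, SGC-0946 and DMSO, and black lines the length of the gene. Gzmb, Nkg7 and Fasl were covered along nearly their whole length in both the EPZ and the DMSO list, Srgn over 6.26 and 12.4 kb, and 5 genes had no bar.

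Gzmb, which encodes granzyme B, was covered by 1 peak in the EPZ list and 1 in the DMSO list. The gene lies on chromosome 14 from 56258836 to 56262334 and is transcribed toward lower coordinates. Its EPZ peak ran from 56259280 to 56262404, 3125 bases at a fold enrichment of 8.88, and its DMSO peak from 56258587 to 56262995, 4409 bases at 11.1. Fold enrichment is the authors' ratio over background for a peak and is read only within its own list. The EPZ peak ranked 322 of 4443 by this value and the DMSO peak 106 of 12578, so that granzyme B held the strongest DMSO peak of the 10 genes. EPZ peaks covered 3055 and DMSO peaks all 3499 bases of the gene, and neither peak touched another annotated gene. Gzmb, Nkg7 and Fasl were each wholly under DMSO peaks, 3 of the 5 DMSO-marked genes, against 3.5% of all DMSO-marked genes and 5.52% of those no longer than Srgn. A short gene is more easily covered whole. These 3 are 3499, 1109 and 7805 bases long and Srgn 33613, so their length was not matched. At the far end the EPZ peak stopped 444 bases short of the end of the gene, and the DMSO peak passed it by 249 bases.

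Fasl had the most complete coverage of the 10 genes with EPZ-5676. It lies on chromosome 1 from 161780691 to 161788495 and is transcribed toward lower coordinates. The EPZ peak, of 8052 bases at 10.6-fold, covered 7804 of its 7805 bases and the DMSO peak, of 8741 bases at 7.15-fold, all of them. Of the 10 genes Fasl had the strongest EPZ peak by fold enrichment, rank 206 of 4443, and the weakest DMSO peak of the 5 marked, rank 929 of 12578. Ranks in lists of such different length do not show a change. Both peaks lay over no other annotated gene.

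Srgn, on chromosome 10 from 62493833 to 62527445, was covered only from its inner start onward. RefSeq lists a start at 62527445 and another at 62507757, and the first 19617 bases of the gene interval had no peak in any list. The EPZ peak ran from 62501459 to 62507714 (6256 bases, 4.58-fold, rank 1324) and the DMSO peak from 62495468 to 62507828 (12361 bases, 7.27-fold, rank 883). Both thus had their upstream edge at the inner start, which carries the Srgn window printed above. Of the interval 18.6% was covered with EPZ-5676 and 36.8% with DMSO. The DMSO peak also touched 25 bases of the noncoding gene Gm51804, which lies within the Srgn interval.

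Nkg7 shared its peaks with neighbours. The gene spans only 1109 bases on chromosome 7, from 43437138 to 43438246, transcribed toward higher coordinates. The EPZ peak of 4889 bases (9.67-fold, rank 262) covered 1086 of them and ran on over 1310 bases of Cldnd2, a claudin domain gene, and the DMSO peak of 10002 bases (7.99-fold, rank 610) covered the whole of Nkg7 and Cldnd2 and 2917 bases of Etfb, which encodes the beta subunit of the electron transfer flavoprotein. Nkg7 held 22.2% of the bases of its EPZ peak and 11.1% of those of its DMSO peak. A second EPZ peak on the same DMSO domain, 347 bases at 2.78-fold, lay in Etfb. The mark therefore cannot be given to Nkg7 alone, although both peaks had their upstream edge within 151 bases of its start.

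Gzmm, which encodes granzyme M, was marked only in the DMSO list and only by a peak shared with a neighbour. It lies on chromosome 10 from 79689020 to 79695261, 622 bases past the end of Cdc34, a ubiquitin-conjugating enzyme gene of the same direction. The DMSO peak, 8386 bases at 9.02-fold, covered all 6206 bases of Cdc34 and ended 661 bases into Gzmm, over 10.6% of that gene. It covered all 300 bases of the first Gzmm start window, so the mark there cannot be given to Cdc34 or Gzmm alone. The EPZ peak on this domain, 3199 bases at 9.25-fold, lay wholly in Cdc34 and ended 3.35 kb before Gzmm. The second start listed for Gzmm lay beyond the peaks of all 3 lists.

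**Figure D2:**
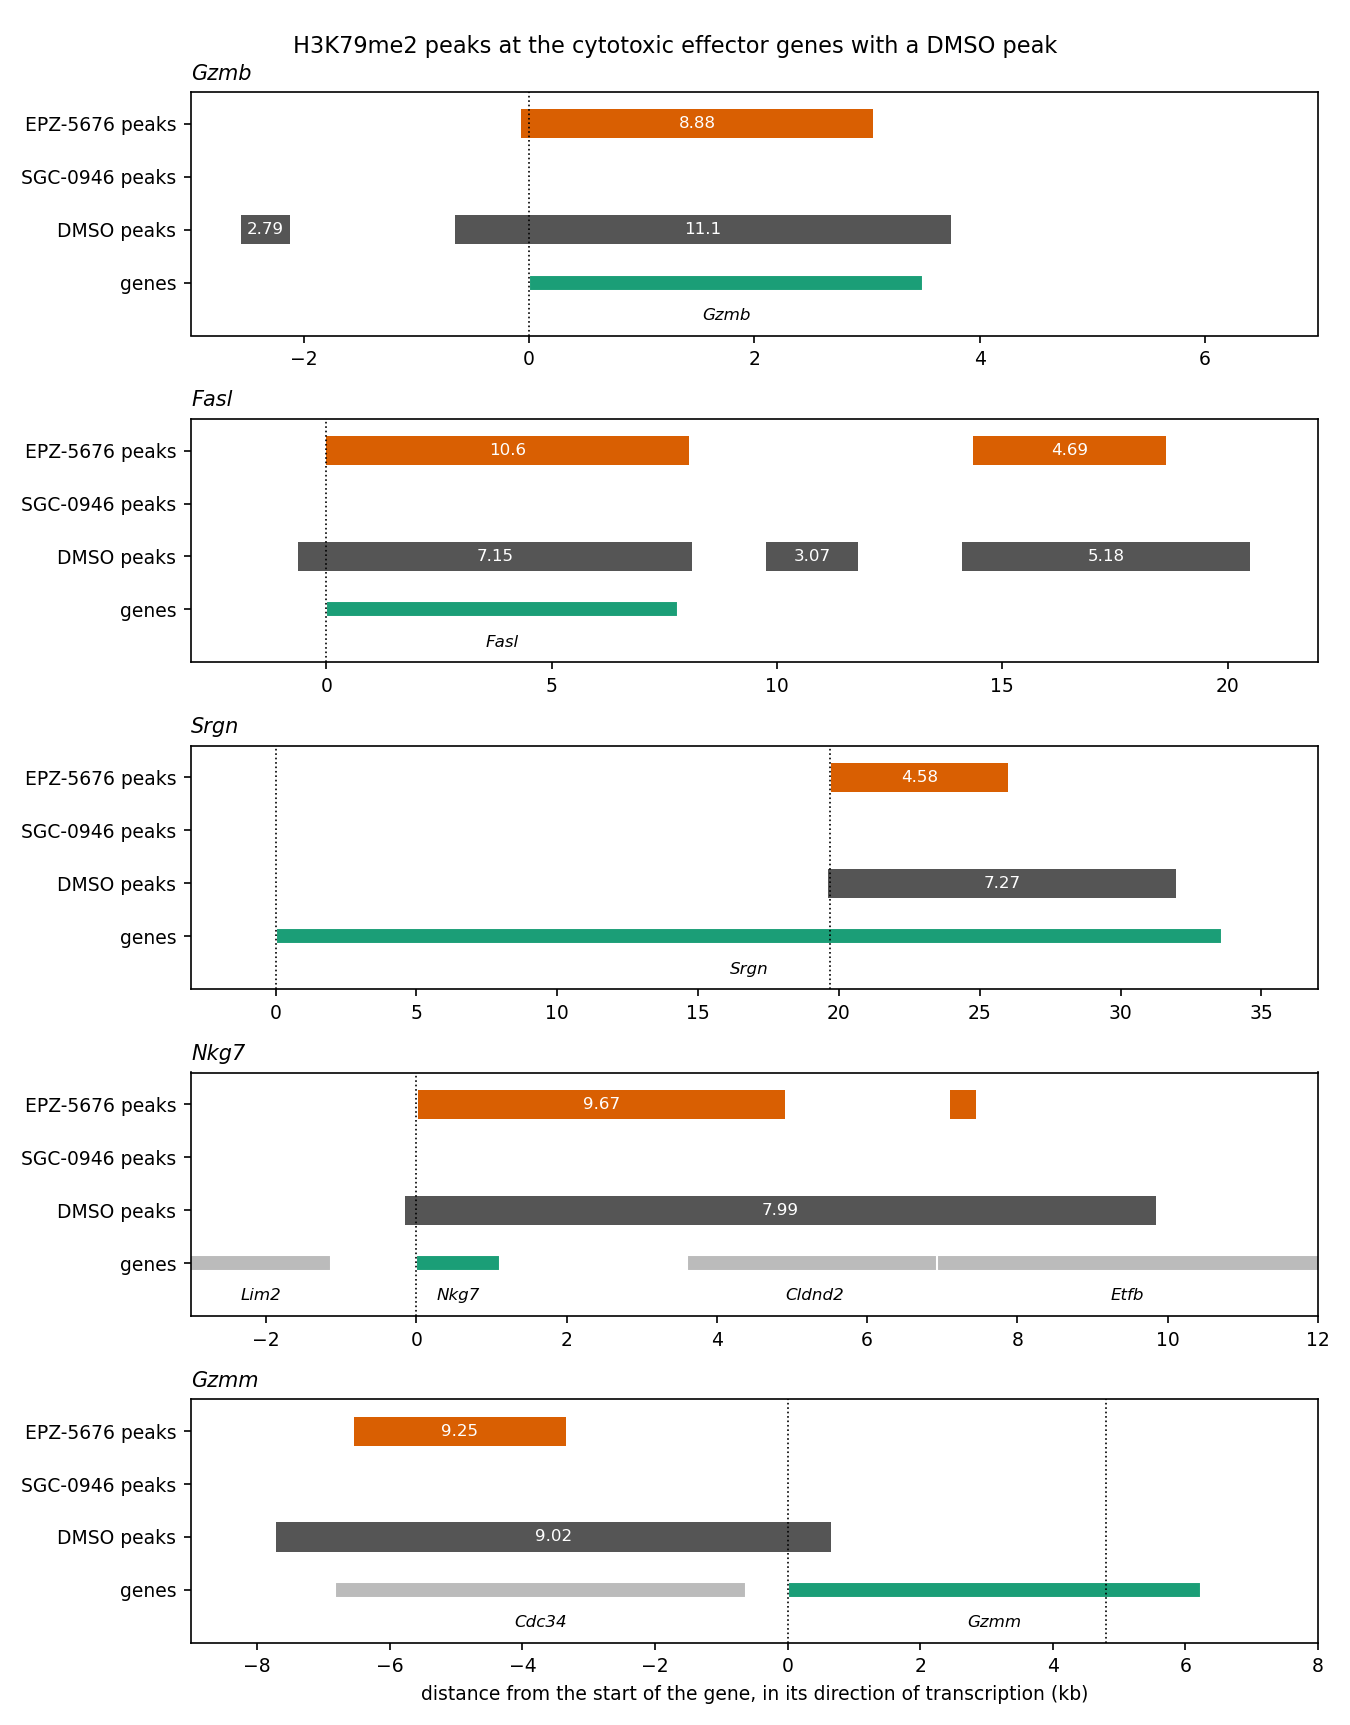
Peaks of the EPZ, SGC and DMSO lists (bars, with their fold enrichment within the list where the bar is wide enough) at the 5 effector genes with a DMSO peak, by distance in kb from the start of the gene in its direction of transcription. Each panel has its own scale, dotted lines are RefSeq starts, green bars the named gene and grey bars its neighbours. The EPZ bars of Gzmb, Fasl and Nkg7 begin at the dotted line, that of Srgn at its inner start, and at Gzmm the EPZ bar lies over Cdc34.

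Gzma, Gzmc, Gzmk, Prf1 and Ifng had no peak in any list. Gzma and Gzmk, encoding granzymes A and K, lie on chromosome 13 from 113093824 to 113100981 and from 113171630 to 113180965. Gzma lies inside the interval of Cdc20b, which was also without a peak, and the nearest peaks were those of Mtrex, an RNA helicase gene of the nuclear exosome, 167 kb from Gzma in both the EPZ and the DMSO list. The same peaks were the nearest to Gzmk, at 245 kb in the EPZ list and 244 kb in the DMSO list. Gzmc, on chromosome 14 from 56231397 to 56241647, had as its nearest peaks those of Gzmb, at 17.6 kb in the EPZ list and 16.9 kb in the DMSO list.

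Prf1, on chromosome 10 from 61297751 to 61304684, lay 142 kb from the nearest EPZ peak and 132 kb from the nearest DMSO peak, both at Eif4ebp2, a repressor of translation initiation. Ifng, on chromosome 10 from 118441046 to 118445894, lay 416 kb from the nearest EPZ peak, at Dyrk2. The nearest DMSO peak to Ifng was 107 kb away, 2158 bases at 2.99-fold, in Ifngas1, a noncoding RNA gene beside Ifng. Of the nearest protein-coding neighbours on either side of these 5 unmarked genes, 2 of 10 had a DMSO peak, namely Gzmb beside Gzmc and Dyrk2 beside Ifng. Of the neighbours of the 5 marked genes 6 of 10 had one, namely Cdc34, Bsg, Cldnd2, Vps26a, Kifbp and Suco. Cdc34 and Cldnd2 count through the same DMSO peaks that mark Gzmm and Nkg7, so part of this difference is fixed by the shared peaks, and 34.5% of all protein-coding genes had a DMSO peak.

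With SGC-0946 none of the 10 genes had a called peak. Over all protein-coding genes 0.142% were marked in the SGC list, and 0.127% of those no longer than Srgn, so that a count of 0 of 10 is not a result about these genes. Chromosomes 10 and 13, which hold 6 of the 10 genes, had no SGC peak. The SGC peak nearest to Gzmb was 2131 kb away, over the T cell receptor alpha and delta loci, the one nearest to Fasl 23607 kb away at Ptprc, and the one nearest to Nkg7 30105 kb away at Chaserr. Set beside each other at the same labelled dose and day, the EPZ list had a called peak at 4 of the 10 genes and the SGC list at 0, and over all protein-coding genes the 2 lists marked 3486 and 31.

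Within the DMSO domains, EPZ peaks covered more of Fasl and Gzmb than of most domains. The covered part of the whole DMSO peak was 92.1% at Fasl, 70.9% at Gzmb, 52.3% at Nkg7 and 50.6% at Srgn. Over the 3382 DMSO peaks overlapped by an EPZ peak the median was 35.7% (interquartile range 20.0 to 55.5). Of these peaks 98.9% were at or below the value of Fasl, 89.4% at or below that of Gzmb, 71.4% at or below that of Nkg7 and 69.2% at or below that of Srgn. The comparison holds DMSO peaks of any fold enrichment. In the whole DMSO list the peak of Gzmb stood at percentile 99.2 by this value and that of Fasl at 92.6. The covered part among peaks of such enrichment was not tested. At the Gzmm domain 38.1% was covered, all of it in Cdc34.

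Counted over the gene instead of the domain, EPZ peaks covered 99.99% of the DMSO bases in Fasl, 97.9% in Nkg7, 87.3% in Gzmb, 50.6% in Srgn and 0 in Gzmm. The median over the 4 genes marked in both lists was 92.6%, against 34.4% over the 3486 protein-coding genes marked in both and 41.5% over the 2163 of them no longer than Srgn. Nkg7, Gzmb and Fasl are only 1109, 3499 and 7805 bases long and Srgn 33613, so neither background matches the length of the first 3. Over the first 5 kb from any listed start the share at Srgn was 99.1%, and no such share was computed over all genes. Whether the difference from the background goes beyond gene length was not tested. The shares over the gene leave out the parts of a domain that lie outside it.

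The bases without EPZ peak lay at different ends of the domains. At the 5′ side the EPZ peak began 591 bases inside the DMSO peak at Gzmb, 619 at Fasl and 114 at Srgn, and at the 3′ side it stopped 693, 70 and 5991 bases short of its end. For comparison, 1780 DMSO peaks held 1 EPZ peak and lay in 1 protein-coding gene of known strand, and their medians were 385 bases at the 5′ side (interquartile range 181 to 860) and 3428 at the 3′ side (1748 to 6378). The 3′ gap was as small as that of Fasl in 1.12% of these peaks and as small as that of Gzmb in 7.70%, and 72.4% had a gap no larger than that of Srgn. At Srgn the uncovered bases were almost all downstream, and at Gzmb they were split between the sides.

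**Figure D3:**
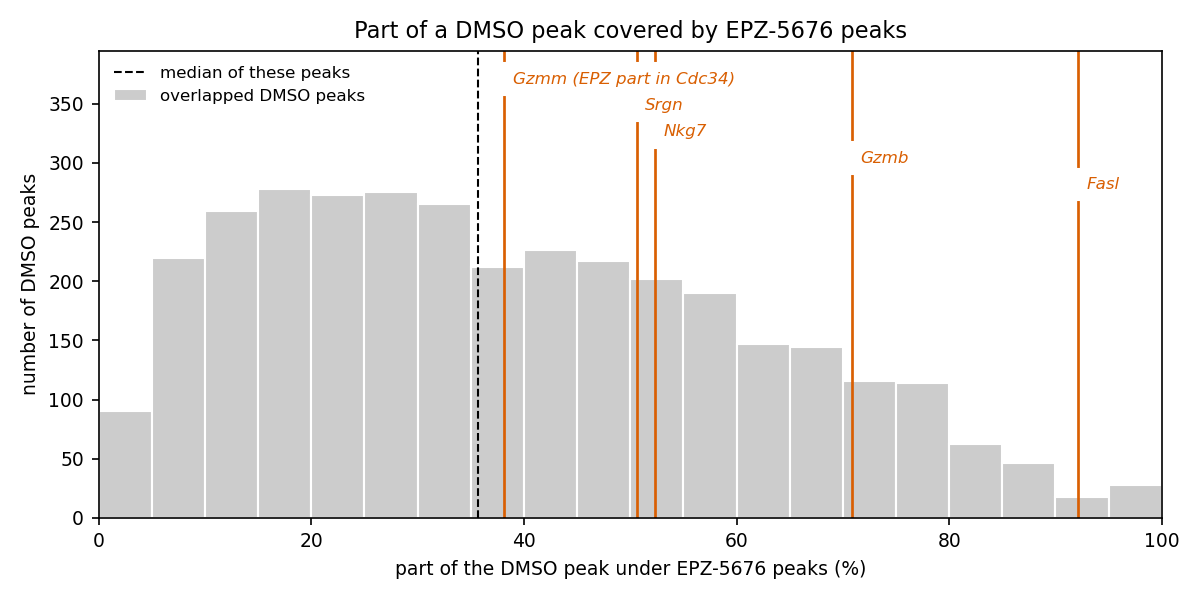
Histogram of the 3382 DMSO peaks overlapped by an EPZ peak, by the percent of the peak under EPZ peaks, with the median dashed and the domains of the 5 effector genes as orange lines. Fasl (92.1%) and Gzmb (70.9%) stand in the upper part, Nkg7 and Srgn near 50, and Gzmm close to the median.

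The start windows of the effector genes were poor in CpG, the dinucleotide concentrated in the promoters of broadly expressed genes. RefSeq lists 12 windows for the 10 genes, with Gzmm and Srgn having 2 each, and they held between 2 and 8 CpG. The 5 windows reached by a DMSO peak held 2 at Gzmb, 3 at Nkg7, 3 at Gzmm, 4 at the inner Srgn start and 7 at Fasl. The median was 22 over the 925 windows of protein-coding genes reached by an EPZ peak (interquartile range 10 to 30), 22 over the 3658 reached by a DMSO peak (14 to 30) and 13 over all 21263. Of the EPZ-reached windows 19.8% held 7 CpG or fewer, and of the DMSO-reached windows 12.6%. Seen from the other side, 2.24% of the 8184 windows with 7 CpG or fewer were reached by an EPZ peak, against 4.35% of all windows, and 5.65% by a DMSO peak, against 17.2%.

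**Figure D4:**
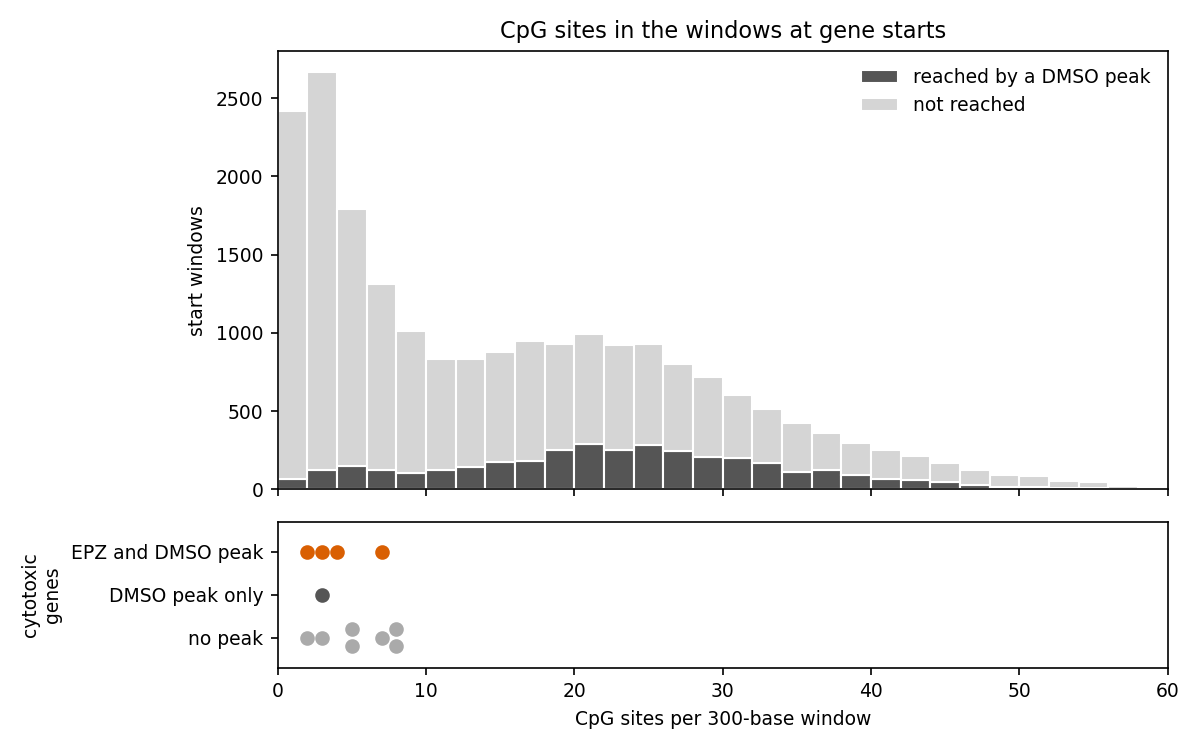
The upper panel counts start windows of protein-coding genes by CpG sites per 300-base window, dark where a DMSO peak reached the window and light, stacked on top, where none did. The lower panel shows the 12 windows of the effector genes by whether EPZ and DMSO peaks, only a DMSO peak or none reached them, and all of them lie at 8 CpG or fewer.

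Short sequence motifs of factors known in T cells were searched in the windows on both strands, and each match is a description of letters only. Positions give the first base of the match relative to the start, negative before it. The RUNX motif TGTGGT occurred in 7 of the 12 windows, in Gzma, Gzmb, Gzmc, Gzmm, Nkg7, Prf1 and the inner window of Srgn. It occurred in 15.0% of all 21263 windows, and in 21.5% of the 8731 with 8 CpG or fewer. It lay in 4 of the 5 windows reached by a DMSO peak and in 3 of the 7 others. No such split was computed over all windows, so these counts do not link the motif to the peaks. In the printed Gzmb window the RUNX motif starts at -93, in lower case, and at -34, in capitals.

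The T-box motif TCACACC was found in 3 windows, of Gzmk, Nkg7 (at -13, on the other strand) and the second start of Gzmm, in 3.68% of all windows and in 4.54% of those with 8 CpG or fewer. The half-site TGACG of cAMP response elements was found in 6, in 23.6% of all windows and in 10.4% of those with 8 CpG or fewer. Gzmb was the only one of the 10 genes with the AP-1 motif TGANTCA, at -58 and within the part under the EPZ peak, and 6.99% of all windows and 11.4% of those with 8 CpG or fewer held it. The NFAT motif GGAAA occurred in 6 windows, against 59.9% of all windows and 66.6% of those with 8 CpG or fewer. The ETS motif AGGAAG occurred in 5, against 34.4% and 41.1%. The TATA motif TATAAA occurred in 2, those of Ifng and the outer start of Srgn (16.7% of the 12), which lies above the share over all windows, 12.6%, and below that over windows with 8 CpG or fewer, 22.6%. The only matches that overlapped each other were those of TGACG on both strands in Gzmc.

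Lists of related genes were marked unevenly. In the granzyme cluster of chromosome 14, which includes Gzmb and Gzmc, 1 of 10 genes was marked in the EPZ list and in the DMSO list. Over all protein-coding genes the shares were 15.9% and 34.5%. The marked gene was Gzmb, so that 0 of the other 8 genes besides Gzmc had a peak. The granzyme genes Gzmc, Gzmd, Gzme, Gzmf, Gzmg and Gzmn had no peak in any list, and neither had Ctsg, Mcpt8 and Cma1, which encode proteases of neutrophils, basophils and mast cells. Several granzymes of this cluster are close copies of each other, and how reads that match more than 1 place were counted is not given in the sources used here, so a missing peak there is uncertain.

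Genes of granule exocytosis had EPZ peaks in 6 of 16 cases and DMSO peaks in 14 of 16. Over all protein-coding genes the shares were 15.9% and 34.5%. The list holds long genes, such as Ap3b1 with 207357 bases, on which 1 base of overlap is more easily met, and gene length was not matched. Kif5b, encoding a kinesin motor, had the highest DMSO value at 8.16 and Vamp8, a vesicle SNARE gene, the lowest at 2.65. The SNARE gene Stx11 was unmarked. Vamp7, another SNARE gene, had no peak either, but its listed interval, X from 10737 to 39191, may not be its true place. The missing peak of Vamp7 is therefore not a result, although the gene counts among the 16. Rab27a, a GTPase needed for granule docking, had 8631 of its bases under EPZ peaks and 32631 under DMSO peaks, and Lyst, mutated in mice with the beige phenotype, 14005 and 26649. Lamp1, the granule membrane protein whose exposure marks degranulation, had a DMSO peak of 4.00-fold and no EPZ peak.

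Granule proteases, their inhibitors and sorting factors had EPZ peaks in 8 of 13 cases and DMSO peaks in 11 of 13. Over all protein-coding genes the shares were 15.9% and 34.5%, and gene length was not matched. Serpinb6a counts among the 11 through only 73 bases of a DMSO peak shared with Ripk1. Calr, encoding calreticulin, was highest in DMSO at 8.19 and Serpinb6b lowest at 3.14, and the cathepsin genes Ctsl and Ctsh were unmarked. Ctsc, the protease that activates granzymes, had 1697 bases under EPZ peaks and 8153 under DMSO peaks. Serpinb9, an inhibitor of granzyme B, had 1850 and 3162.

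Of death ligands, death receptors and caspases 8 of 14 had EPZ peaks and 13 of 14 DMSO peaks, against 15.9% and 34.5% of all protein-coding genes. Casp8, the initiator caspase of Fas signalling, was highest in DMSO at 11.9 and the adaptor Fadd lowest at 2.73. Fas itself, the receptor of Fas ligand, had 758 bases under a DMSO peak of 2.76-fold and no EPZ peak. The cytokine genes Tnf, Lta and Ltb shared 1 DMSO peak of 8.20-fold and thus enter the 13 through the same peak. Each was under an EPZ peak, with the same value of 6.53 at Tnf and Lta and 6.17 at Ltb, so the 8 are not all separate peaks either.

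Effector cytokine and chemokine genes had EPZ peaks in 3 of 14 cases (21.4%, against 15.9% of all protein-coding genes) and DMSO peaks in 4 of 14 (28.6%, against 34.5%), both near the background. Il16, Ifngr1 and Tgfb1 had both, with DMSO values of 10.5, 9.18 and 5.05, and Ifngr2 had only a DMSO peak, of 3.42-fold. Il2, Il10, Csf2 and Ccl3 were among the 10 genes of this list without a peak. Ifng, which is not in this list, had none either. In this list Ifngr1 and Ifngr2 encode the receptor of interferon gamma.

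**Figure D5:**
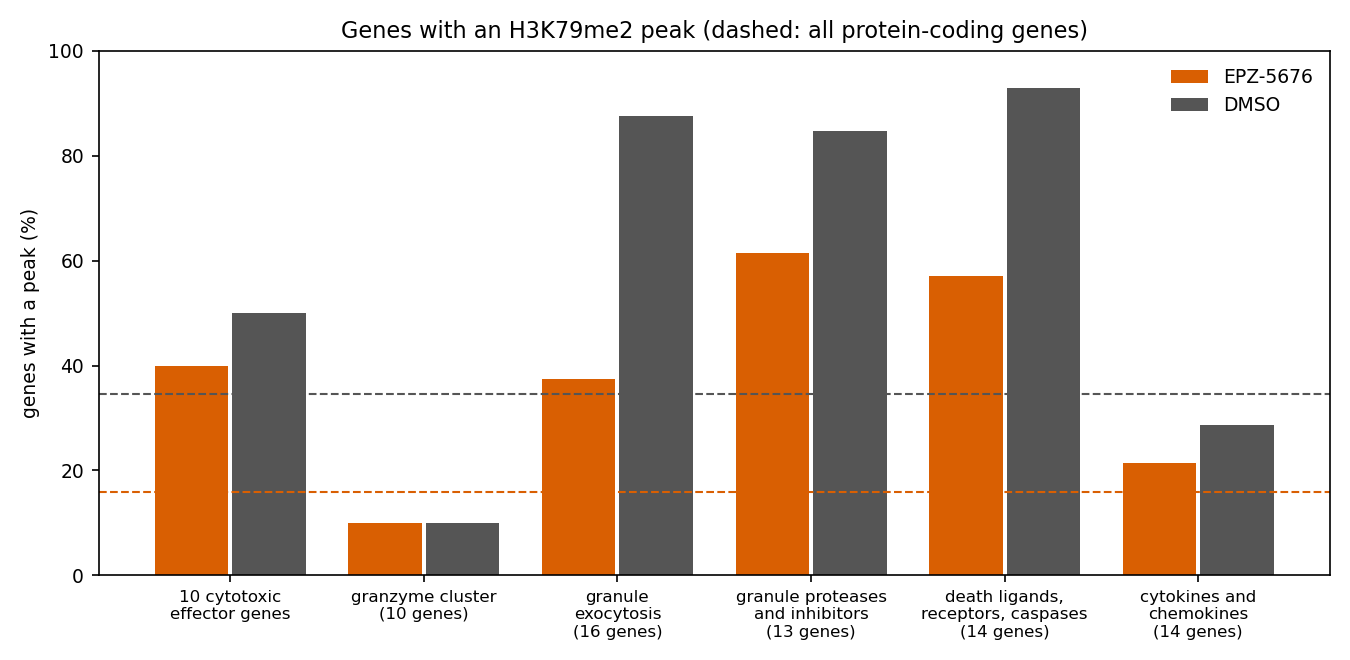
Bars give the percent of genes with an EPZ or a DMSO peak among the 10 cytotoxic effector genes and in 5 lists of related genes, and dashed lines the shares over all protein-coding genes (15.9% EPZ, 34.5% DMSO). The granzyme cluster list, which counts Gzmb and Gzmc again, stands below both lines, the exocytosis, protease and death receptor lists stand above both, and the cytokine list stands close to them (21.4% EPZ, 28.6% DMSO).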

How the data were processed

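H3K79me2 ChIP-seq was made from 12 libraries of mouse CD8 T cells, 6 immunoprecipitates and 6 inputs, with 2 replicates in each of 3 treatments. Per the submitters' processing notes the tools named are MACS2 2.2.7.1, Picard and BWA 0.7.17-r1188, and the builds sacCer3 (yeast) and mm10, also called GRCm38. Yeast chromatin was added as a reference before immunoprecipitation, per the labels' protocols. The thresholds of the peak caller, the use of inputs and yeast reads and the way replicates were combined are not stated in the sources used here. Lists carry no replicate and were read as 1 pooled list per treatment. A peak's deposited fold enrichment is the authors' ratio over background, a mean over the peak in the MACS2 layout, and its deposited −log10 q is likewise a mean. The deposited score entered no result. Depth per library is unknown.

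Peaks were intersected with the gene intervals of RefSeq on GRCm38.p6 in Python 3.11.15 with pandas 2.3.3, counting 1 base as overlap, and the counting was tested on simulated intervals. Start sites and strands came from the RefSeq promoter table, which has 17492 of the 21900 protein-coding genes. No exons, introns or UTRs were analysed. The genes and lists were chosen with earlier results of these data known. Named were the 10 genes, their neighbours, the granzyme cluster and, from each other list, the marked genes of highest and lowest DMSO value, EPZ-marked genes where 4 or fewer, and up to 4 unmarked ones. A gene that this rule names is not reported here. Rab27a, Lyst, Lamp1, Ctsc, Serpinb9, Fas, Tnf, Lta and Ltb were added after their values were seen. Alternatives changed the overlap rule, peak threshold, gene interval and background.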

Additional observations from a re-analysis of the deposited data

How the results depend on the processing

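The count of EPZ-marked genes was 3 to 5 and that of SGC-marked genes 0 under 7 other settings and 1 more chosen after seeing the data. The count of DMSO-marked genes was 3 when at least 50% of a gene had to be covered (Gzmb, Nkg7 and Fasl) and 3 when a peak counted only for the gene it overlaps most (Gzmb, Srgn and Fasl), and 4 or 5 otherwise. Requiring a −log10 q of at least 5, a fold enrichment of at least 4 or 500 covered bases changed none of these counts, but the shares over all protein-coding genes fell to 7.68% (EPZ) and 17.3% (DMSO) with the first and 8.29% and 21.2% with the second, and were 14.7% and 32.9% with the third. With 50% of a gene required they were 2.08% and 8.42%, beside 3 and 3 of the 10 genes. With genes extended by 5 kb they were 19.7% and 39.5%, beside 5 and 5, Gzmm then counting in the EPZ list through the peak in Cdc34. Over the first 5 kb of each of 17492 genes they were 14.8% and 32.8%, beside 3 and 4. From any listed start they were 15.5% and 33.8%, beside 4 and 5. Over all 10 genes, EPZ peaks covered 71.6% of the DMSO bases. This share was 96.2% with 50% of a gene required, 72.3% with a peak given to 1 gene, 60.1% with genes extended by 5 kb on each side, 89.0% over the first 5 kb of each gene and 92.3% over the first 5 kb from any listed start, the added setting. The 50% rule leaves out Srgn and Gzmm, which had the lowest shares of the DMSO-marked genes, so the rise to 96.2% follows from the rule. None of these shares was computed over all genes. With genes extended, the share was 64.5% at Gzmb, 29.2% at Gzmm, where Cdc34 then counts, 78.1% at Nkg7 and 74.6% at Fasl. From any listed start Srgn reached 99.1%, and over the first 5 kb of the interval it had no peak. Among genes no longer than Srgn the background was 14.4% in the EPZ list, 0.127% in the SGC list and 31.8% in the DMSO list. No paired analysis was possible because there is 1 list per treatment and none carries a replicate, and leaving out a replicate could not be run for the same reason. Depth is unknown, so weak peaks may be uncalled in any list.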

Other observations

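The regions beside Gzmb and Fasl held peaks in no annotated gene, which was so for 285 of the 12578 DMSO peaks (2.27%). Upstream of Gzmb, between 2.12 and 35.9 kb from it, lay 6 DMSO peaks of 324 to 2194 bases, with fold enrichments of 2.62 to 3.30 and −log10 q values of 1.01 to 2.11. None of the 6 was overlapped by an EPZ peak, against 28 of the 285 (9.82%). In 4 of the 6 the −log10 q was at most 1.16, near the lowest of the DMSO list, 1.00, and in the other 2 it was 1.90 and 2.11. None would pass a value of 5. Downstream of Fasl an EPZ peak of 4284 bases at 4.69-fold lay on a DMSO peak of 6394 bases at 5.18-fold, which began 6.30 kb past the gene. A narrower DMSO peak, 2048 bases at 3.07-fold and 1.96 kb past the gene, had no EPZ peak on it. The DMSO fold enrichment of the wider peak was reached by 9 of the 285 peaks, itself included, and all 9 were overlapped by an EPZ peak.

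The protein-coding genes most like Gzmb in the bases under EPZ and DMSO peaks, measured as the distance in log2 bases over these 2 treatments, were Trir, H2-D1 and Slfn1. Trir had 3096 bases under EPZ and 3481 under DMSO peaks, H2-D1, a class I MHC gene, 3013 and 3535, and Slfn1, a Schlafen family gene, 3177 and 3605, against 3055 and 3499 in Gzmb.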
